A study of Bos taurus with 12 samples.

Results

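The genes described here encode 9 proteins of the actin cytoskeleton: the cytoplasmic actins ACTB and ACTG1, the tropomyosins TPM1 and TPM4, the myosin light chain MYL6, the bundling protein PLS1, the adhesion protein ZYX, the coronin CORO2A and the membrane-linked protein SVIL. They were chosen by their signals at 2 stages of bovine embryos, so their differences between stages are a description and were not tested. All probe sets whose annotation named exactly 1 of these symbols were taken. That gave 14 probe sets for 9 genes, of 24016 probe sets tested and 9155 named genes. Each gene is represented by its probe set of highest mean log2 signal over the 12 arrays.

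Embryos of Japanese Black cattle were made by maturing and fertilizing oocytes in vitro and were then cultured. The groups were expanded blastocysts on day 7, before hatching, from prepubertal heifers of 9 to 12 months and from adult cows, and embryos of 8 to 16 cells on day 3, at 70 to 72 h after insemination, from the same 2 kinds of donor. Each group had 3 arrays, and each array held 1 pool of 10 blastocysts or of 50 8-16-cell embryos (n = 3 throughout). Adult ovaries came from an abattoir and prepubertal ovaries from animals spayed on farms, so donor age and the source of the ovaries cannot be told apart. All oocytes were fertilized with frozen semen of Japanese Black bulls, and the RNA of every pool was amplified before labelling. The labels call the pools biological replicates and do not say whether donors, bulls or culture days were shared, so the p-values do not reach beyond these pools. Each SE and p-value rests mostly on the spread of all probe sets of like brightness, and little on the gene's own pools.

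Actin monomers assemble into filaments that lie as a cortex under the cell membrane. Tropomyosins coat the filaments, myosin II pulls on them, bundling proteins pack them side by side, and zyxin sits where they meet adhesions. In mammalian embryos this cortex is known for its part in compaction and polarity and for the tension and junctions of the trophectoderm, the outer epithelium that encloses the blastocyst cavity.

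Signals are linear intensities that were scaled to the same mean on every array. A probe set was counted as above background on an array when its signal exceeded the brightest of 27 Bacillus subtilis control probe sets there. That background was 172 to 254 in prepubertal blastocysts, 187 to 282 in adult blastocysts, 356 to 1664 in prepubertal 8-16-cell embryos and 122 to 251 in adult 8-16-cell embryos. Prepubertal 8-16-cell replicate 3 stood apart, with the background of 1664 and 1255 probe sets above it, against 4297 to 8500 elsewhere, and its brightest 100 probe sets held 49.3% of all signal, against 23.3% to 32.7%. The hybridization controls read 3.10-fold as high in prepubertal as in adult 8-16-cell arrays and 1.05-fold as high in prepubertal as in adult blastocyst arrays. The median of all probe sets shifted by -0.37 (log2) for blastocysts against 8-16-cell embryos in the prepubertal group and by 0.08 in the adult group. For prepubertal against adult it shifted by 0.16 in blastocysts and by 0.59 in 8-16-cell embryos.

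The stage labels were checked against marker genes. The summed signal of 6 measured blastocyst markers was 47260 to 89534 in prepubertal blastocysts and 34681 to 42230 in adult blastocysts, against 669 to 1088 in prepubertal and 430 to 549 in adult 8-16-cell embryos. KRT8 and KRT19, keratins of simple epithelia, were above background on all 3 arrays of both blastocyst groups and on none of the 8-16-cell arrays. The sum of 8 oocyte genes was 506 to 3012 in prepubertal and 760 to 1627 in adult blastocysts, against 52609 to 266308 in prepubertal and 32780 to 57561 in adult 8-16-cell embryos. BMP15, an oocyte growth factor gene, was above background on all 3 arrays of both 8-16-cell groups and on no blastocyst array. OOEP of the same list was above background on 3 prepubertal and 1 adult blastocyst arrays, against 0 and 1 of the 8-16-cell arrays. NLRP5 was above it on 1 prepubertal and ZP3 on 1 adult blastocyst array alone. Of the blastocyst list, PAG2 was above it on 1 prepubertal and 3 adult blastocyst arrays, and IFNT2 on 2 and 3. KRT18, IFNT2 and CLDN6 were each above it on 1 8-16-cell array.

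ACTB and ACTG1 encode the 2 actins of non-muscle cells, and both gave higher signals in every blastocyst pool than in any 8-16-cell pool. ACTB read 133049, 124683 and 108931 in prepubertal blastocysts, against 21678, 8816 and 1280 in prepubertal 8-16-cell embryos. Adult pools read 177103, 85322 and 94114 in blastocysts, against 31919, 7160 and 37105 in 8-16-cell embryos. ACTB lay clear of background in adult 8-16-cell pools, and only the signal of 1280, on the array that stood apart, was below background. The difference was 4.28 (log2, SE 0.70) in the prepubertal group and 2.46 (SE 0.70) in the adult group. Without prepubertal 8-16-cell replicate 3 the prepubertal difference was 3.14.

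ACTG1 read 58386, 73504 and 92597 in prepubertal blastocysts, against 1140, 399 and 4504 in prepubertal 8-16-cell embryos. The adult pools gave 59548, 121467 and 73938 in blastocysts, against 173, 3547 and 483 in 8-16-cell embryos. The difference was 5.83 (log2, SE 1.01) in the prepubertal and 6.87 (SE 1.01) in the adult group, and 6.73 in the prepubertal group without the array that stood apart. Both groups of 8-16-cell pools were spread widely, with 1 high pool each: replicate 3 of the prepubertal and replicate 2 of the adult pools. These are arrays on which ACTB was lowest of its group. Actin genes are close in sequence, and whether their probe sets bind each other's transcripts was not tested.

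**Figure D1:**
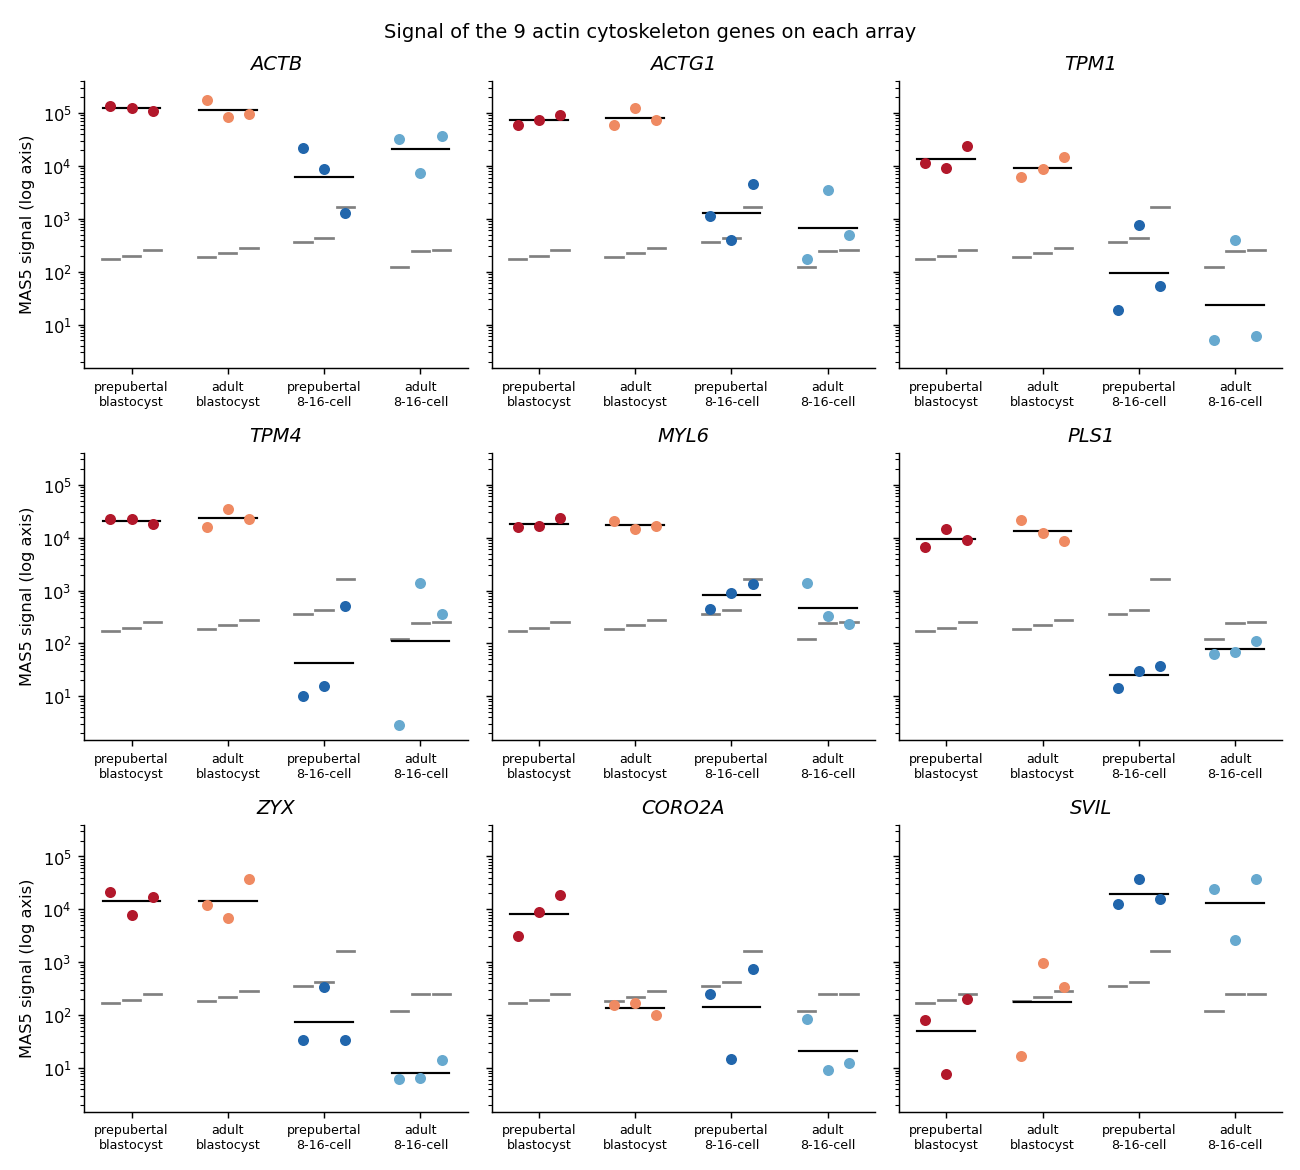
Signal of the 9 genes on each of the 12 arrays (log10 axis, linear MAS5 signal), 1 panel a gene, with groups from left to right as prepubertal and adult blastocysts, then prepubertal and adult 8-16-cell embryos. Points are pools, black bars are geometric means, and grey ticks mark each array's background. ACTB, ACTG1, TPM1, TPM4, MYL6, PLS1 and ZYX are higher in all blastocyst pools, SVIL is lower, and the CORO2A probe set shown is above background in the prepubertal blastocysts and in no other group.

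TPM1 and TPM4 had low or background signals at the 8-16-cell stage. Of the other tropomyosin genes, TPM2 differed between stages by 0.14 (log2) in the prepubertal and 0.51 in the adult group. TPM3 differed by -0.57 and -1.52 in the same order. TPM1 read 11480, 9184 and 24062 in prepubertal blastocysts, against 19.0, 773 and 54.3 in prepubertal 8-16-cell embryos. It read 6028, 8846 and 14430 in adult blastocysts, against 5.0, 401 and 6.2 in adult 8-16-cell embryos. Replicate 2 of each 8-16-cell group was the only pool above background there. TPM1 differed by 6.77 (log2, SE 1.44) in the prepubertal group and by 7.31 (SE 1.44) in the adult group. With every signal raised to the highest background of any array, the difference was 3.02 in the prepubertal and 2.45 in the adult group.

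TPM4 read 22056, 22649 and 18047 in prepubertal blastocysts, against 10.1, 15.6 and 508 in prepubertal 8-16-cell embryos, none of them above background. Where all 3 pools of the dimmer group are at background, only a lower limit of the fold is given, computed with each dim signal raised to its array's background. TPM4 was at least 32.0-fold higher in prepubertal blastocysts. The adult values were 15824, 34089 and 22938 in blastocysts, against 2.9, 1400 and 360 in 8-16-cell embryos, a difference of 6.74 (log2, SE 1.37). The adult 8-16-cell pools had the widest spread of any gene and group described here, with an SD of 3.19 (log2), and 2 of the 3 were above background.

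MYL6, a light chain of non-muscle myosin II, was even among blastocyst pools, with SDs of 0.29 (log2) in the prepubertal and 0.25 in the adult group. It read 16080, 16274 and 23023 in prepubertal blastocysts, against 448, 891 and 1317 in prepubertal 8-16-cell embryos. The adult values were 20736, 14733 and 16359 in blastocysts, against 1382, 324 and 234 in 8-16-cell embryos. The stages differed by 4.46 (log2, SE 1.21) in the prepubertal and 5.12 (SE 1.21) in the adult group. MYL6 was above background on 2 of 3 arrays in each 8-16-cell group, so its transcript was measured at both stages.

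PLS1 encodes plastin 1, which bundles actin filaments in microvilli. It read 6737, 14475 and 9074 in prepubertal blastocysts, against 14.2, 30.2 and 37.7 in prepubertal 8-16-cell embryos, at least 14.8-fold higher. Adult pools read 21323, 12248 and 8493 in blastocysts, against 62.7, 68.0 and 109 in 8-16-cell embryos, at least 61.2-fold higher. PLS1 was at background in all 8-16-cell pools. The lower limit is smaller in the prepubertal group, where the background of the 8-16-cell arrays is higher. The mean log2 signal in blastocysts was also lower there, at 13.23 against 13.67 in the adult group.

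ZYX encodes zyxin, a LIM-domain protein of focal adhesions and cell junctions. It read 21217, 7952 and 17248 in prepubertal blastocysts, against 33.4, 340 and 34.1 in prepubertal 8-16-cell embryos, at least 22.0-fold higher. It read 12083, 6851 and 36922 in adult blastocysts, against 6.1, 6.5 and 14.0 in adult 8-16-cell embryos, at least 68.1-fold higher. As with PLS1, no 8-16-cell pool was above background.

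SVIL ran the other way. It encodes supervillin, a protein of the villin and gelsolin family that ties actin and myosin II to the membrane. It read 81.1, 7.9 and 206 in prepubertal blastocysts, against 12827, 37934 and 15816 in prepubertal 8-16-cell embryos, at least 89.6-fold lower. Adult pools read 17.3, 966 and 345 in blastocysts, against 24061, 2656 and 37264 in 8-16-cell embryos, a difference of -5.88 (log2, SE 1.39). SVIL was above background in 2 of 3 adult blastocyst pools and in none of the prepubertal ones. Its signals of 2656 and 966, both from replicate 2 of an adult group, were the closest approach of the stages.

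CORO2A encodes a coronin, one of a family of WD-repeat proteins that bind actin. It read 3081, 8932 and 18704 in prepubertal blastocysts, against 253, 14.9 and 742 in prepubertal 8-16-cell embryos, at least 12.4-fold higher. In the adult group it read 154, 171 and 100 in blastocysts, against 84.7, 9.3 and 12.4 in 8-16-cell embryos. All 6 adult pools were at background on this probe set, so no fold is given there.

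Over both donor groups, the 6 blastocyst arrays lay above the 6 8-16-cell arrays for 7 of the 9 genes, as they did for 3.68% of all named genes, and below them for SVIL, as for 1.94% of all named genes. CORO2A overlapped between stages. These counts restate how the genes were chosen. Relative to the median of all probe sets, and leaving out genes with a group at background, the prepubertal difference was 4.64 (log2) for ACTB, 6.20 for ACTG1, 7.14 for TPM1 and 4.83 for MYL6. On the same terms the adult difference was 2.38 for ACTB, 6.79 for ACTG1, 7.23 for TPM1, 6.67 for TPM4, 5.04 for MYL6 and -5.96 for SVIL. Single pools at background enter several of these values. For TPM1 most 8-16-cell pools were at background, so its values depend on signals below it. Pools differ in the number of embryos and of cells per embryo, and in such bulk samples fewer cells with a transcript and less of it per cell cannot be told apart.

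**Figure D2:**
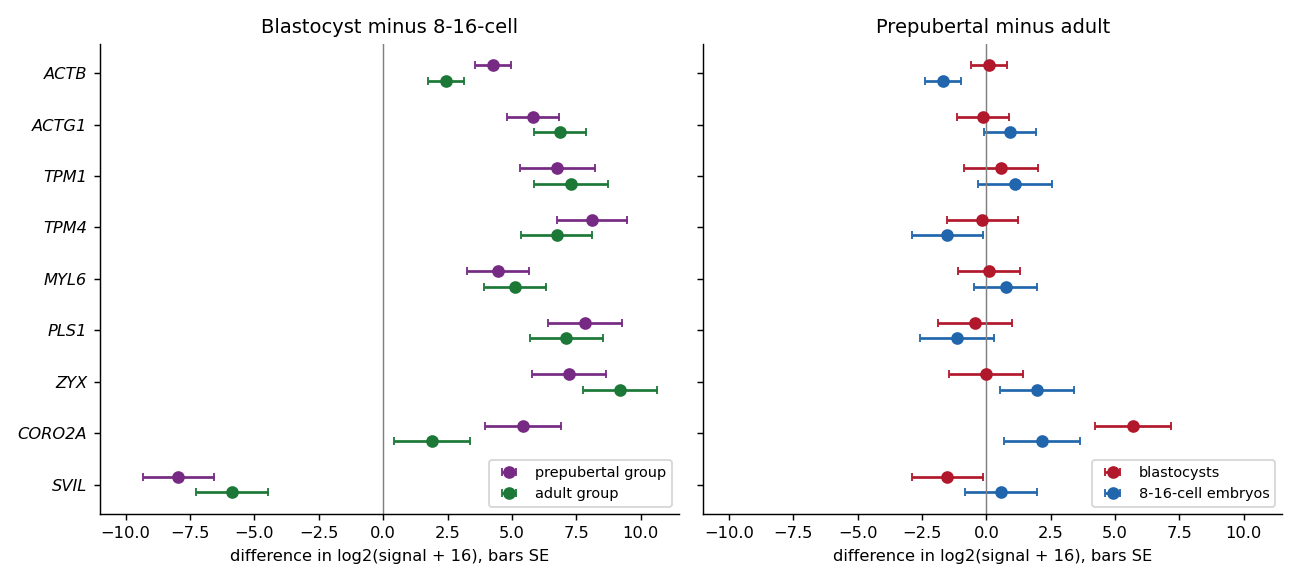
Log2 differences of the 9 genes with bars of 1 SE from the fit, for blastocyst minus 8-16-cell embryos in each donor group and for prepubertal minus adult at each stage. In blastocysts the donor differences of ACTB, ACTG1, TPM1, TPM4, MYL6, PLS1 and ZYX lie between -0.44 and 0.57. Where a group was at background on all 3 arrays, as CORO2A was in adult blastocysts, the plotted value depends on that background.

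The order of the groups is given for genes above background in each of them. For ACTB the mean log2 signal was 16.89 in prepubertal and 16.78 in adult blastocysts, then 14.32 in adult and 12.62 in prepubertal 8-16-cell embryos. ACTG1 and MYL6, each above background on at least 2 arrays of every group, had their lowest mean in adult 8-16-cell embryos. The donor groups overlapped within each stage for ACTB, ACTG1 and MYL6, so these orders hold only between stages. The 8-16-cell groups of PLS1 and ZYX have no order, since both lay at background.

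The question of the study was whether embryos of prepubertal donors differ from those of adults. The genes were chosen by stage values with the donor values known, and both contrasts share arrays. In blastocysts limma called 0 of the 9 genes between donor groups at an adjusted p of 0.05 (Benjamini-Hochberg over all probe sets), against a background of 0.0% of named genes. At an unadjusted p of 0.05 it called 1 of them, CORO2A, against 357 genes, or 3.9%. The 95% interval of prepubertal minus adult was -1.26 to 1.49 (log2) for ACTB, -2.14 to 1.86 for ACTG1 and -2.29 to 2.47 for MYL6. Intervals of the other 4 of the 7 genes were wider, such as -2.86 to 2.81 for ZYX, so this fit could not detect differences of several-fold in either direction. The widths rest mostly on the spread of other probe sets over all 4 groups, and little on the blastocyst pools compared. For MYL6 those pools had SDs of 0.29 (log2) in the prepubertal and 0.25 in the adult group. The median size of the difference was 0.15 (log2) for the 9 genes and 0.82 for all named genes in blastocysts, and 1.15 for the 9 genes and 1.04 for all named genes in 8-16-cell embryos. Most of the 9 genes were chosen with bright signals in blastocysts, and brightness was not matched, so these medians do not compare genes of like brightness.

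CORO2A had the largest donor difference of the 9 genes in blastocysts. Its 3 prepubertal signals, 3081 to 18704, all lay above the 3 adult ones, 100 to 171, at least 32.9-fold higher. limma gave an unadjusted p of 0.00015 and an adjusted p of 0.797, so it did not pass over all probe sets, and the adjusted p was 0.352 to 1.0 over the alternatives tried. Non-overlap of 3 arrays against 3 was found for 10.2% of named genes in this comparison. The gene was chosen with these values known, and the prepubertal blastocyst arrays also carry its stage difference, so the donor difference is no independent observation.

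The other probe sets of CORO2A did not share that pattern. The second read 1557, 403 and 23.6 in prepubertal blastocysts, against 137, 1781 and 2142 in adult blastocysts, a difference of -1.50 (log2). The third read 51.2, 120 and 1864 in prepubertal blastocysts, against 105, 541 and 7.8 in adult blastocysts, a difference of 1.14. The groups overlapped on both. Between stages the second was at least 3.94-fold higher in adult blastocysts, where the adult 8-16-cell pools read 106, 57.4 and 7.9. The stages overlapped on the second in the prepubertal group and on the third in both groups. The prepubertal stage difference of CORO2A is thus carried by 1 probe set. Which transcripts of CORO2A each probe set binds was not tested.

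At the 8-16-cell stage limma called 0 of the 9 genes between donor groups at an adjusted p of 0.05, against a background of 0.0218% of named genes. ACTB had a difference of -1.70 (log2, SE 0.70, unadjusted p 0.0157, adjusted p = 0.462 by limma), the single member under an unadjusted p of 0.05, as were 801 genes or 8.75%. Its pools overlapped: 21678, 8816 and 1280 in prepubertal against 31919, 7160 and 37105 in adult 8-16-cell embryos. These pools had SDs of 2.08 (log2) in the prepubertal and 1.31 in the adult group, while the SE of 0.70 comes mostly from other probe sets. Without prepubertal 8-16-cell replicate 3 the difference was -0.56 (limma, adjusted p = 0.908). PLS1 and ZYX were the 2 of 9 genes whose donor groups did not overlap, as for 12.3% of named genes, with all signals at background. The hybridization controls and the median of all probe sets differ in this comparison as given above, and their part in these values was not tested.

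Prepubertal minus adult of the stage difference was 1.81 (log2, SE 0.99) for ACTB, -1.04 (SE 1.43) for ACTG1, -0.53 (SE 2.04) for TPM1 and -0.66 (SE 1.71) for MYL6. These are given as values because the stage differences chose the genes. None is given for TPM4, PLS1, ZYX, CORO2A and SVIL, each of which had a group at background.

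The spread between pools differed by gene and stage. The median SD was 0.56 (log2) in prepubertal and 0.57 in adult blastocysts, against 1.26 and 1.23 for 7869 genes as bright as the median probe set in at least 1 group. In 8-16-cell embryos it was 1.73 in prepubertal and 1.32 in adult pools, against 1.60 and 1.32. Among blastocysts the SD ran from 0.15 (ACTB) to 1.62 (SVIL) in prepubertal pools and from 0.25 (MYL6) to 2.51 (SVIL) in adult pools. SVIL was at background in all prepubertal blastocyst pools. In adult blastocysts it read 17.3, 966 and 345, with 2 of these pools above background. Brightness was not matched here, and the spreads were not tested.

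Within a stage the signals of the 9 genes showed no common direction from pool to pool. Over the 6 blastocyst arrays, Pearson's r between pairs of genes ran from -0.858 to 0.747 with a median of -0.06, and 15 of 36 pairs were above 0. Over the 6 8-16-cell arrays it ran from -0.771 to 0.741 with a median of -0.16, again with 15 of 36 above 0. These correlations are descriptions over 6 arrays that share scaling and amplification. At the 8-16-cell stage PLS1, ZYX and CORO2A were at background on all arrays and TPM1 and TPM4 on most. SVIL was at background on most blastocyst arrays. Pairs with such a gene compare signals at background, so they cannot tell whether the genes move together.

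Several genes were measured by more than 1 probe set, and the others were dimmer. The second probe set of ACTG1 read 1649, 582 and 563 in prepubertal blastocysts, against 17.0, 245 and 707 in prepubertal 8-16-cell embryos. It read 654, 3169 and 1456 in adult blastocysts, against 57.8, 313 and 119 in adult 8-16-cell embryos, at least 1.28-fold higher in the prepubertal group and a difference of 3.30 (log2) in the adult group. It kept the direction of the brighter one, though in the prepubertal group the stages overlapped.

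The second probe set of TPM1 read 156, 280 and 337 in prepubertal blastocysts, against 157, 37.6 and 315 in prepubertal 8-16-cell embryos, which overlapped. It read 91.2, 157 and 312 in adult blastocysts, against 4.7, 5.7 and 7.1 in adult 8-16-cell embryos, which did not. That of ZYX was above background on 1 of 12 arrays. The stage difference of ZYX is thus carried by 1 probe set, and so is that of TPM1 in the prepubertal group. In the adult group the second probe set of TPM1 was above background on 1 blastocyst array and 0 8-16-cell arrays, so it adds little. Averaging both probe sets of TPM1 gave 3.81 (log2) in the prepubertal and 5.19 in the adult group.

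**Figure D3:**
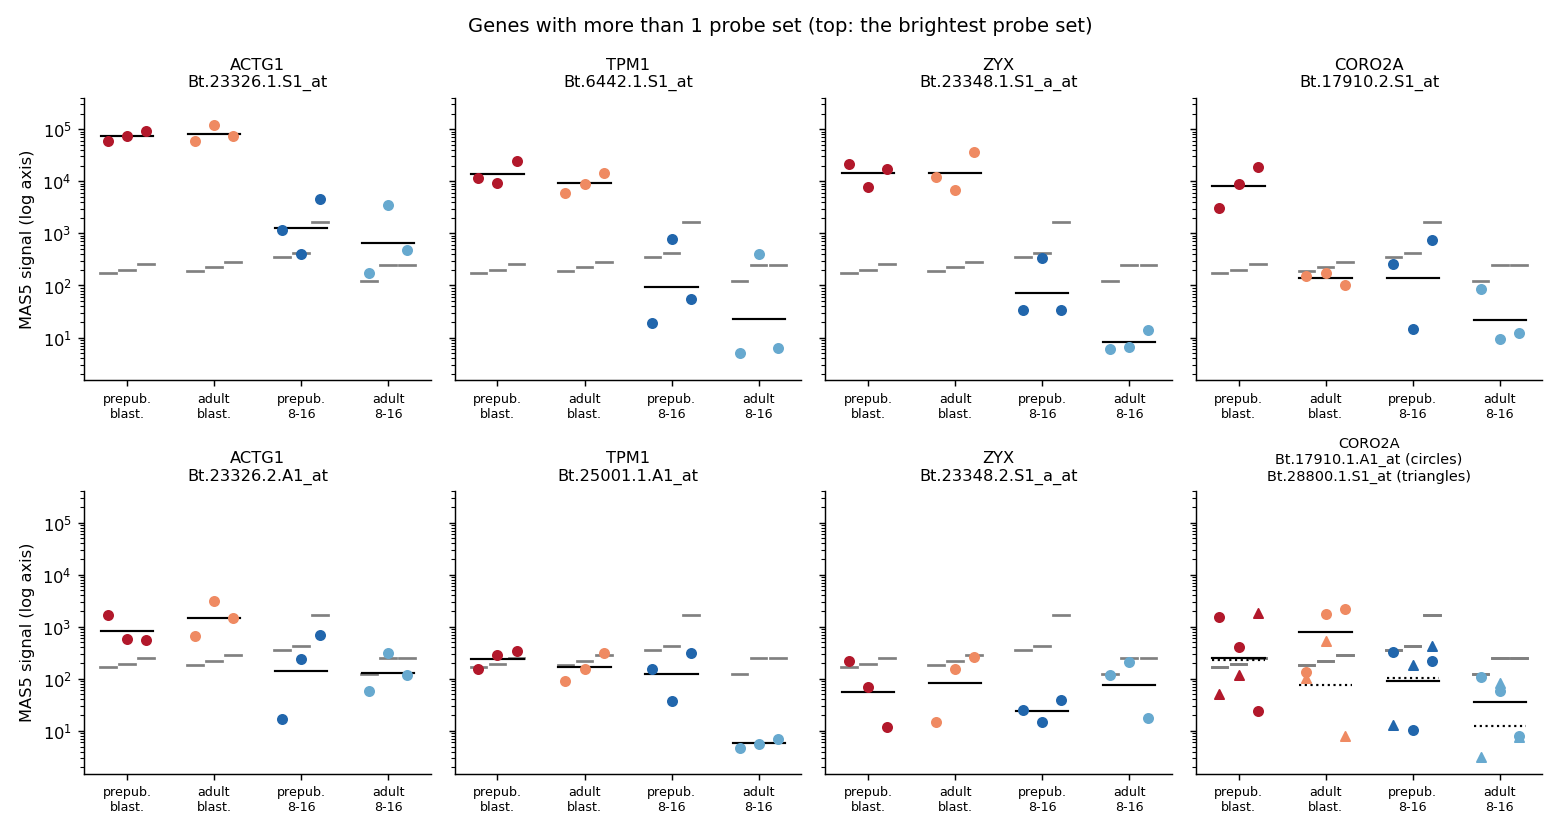
Signals (log10 axis) on each array, by group, of the genes with more than 1 probe set, with the brightest probe set of each gene above and the others below it. Black bars are geometric means, grey ticks are backgrounds, and the triangles with dotted bars are the third probe set of CORO2A. The other probe sets lie mostly near background, and neither of the lower ones of CORO2A separates prepubertal from adult blastocysts.

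Genes whose pattern was most like each member were found by Pearson's r of log2 signal over the 12 arrays, among 7869 genes. Since 8 of the 9 members differ mainly by stage, these are genes with a like stage gap. For ACTB they were CCT2 (r = 0.967), which encodes a subunit of the chaperonin that folds actin and tubulin, CCDC47 (0.946) and NDFIP1 (0.942). For ACTG1 they were HMGB1 (0.976), SNX2 (0.966) and PRL (0.964). TPM1 was closest to SLC38A2 (0.99), ANXA2 (0.963) and CPPED1 (0.961), and TPM4 to HPCAL1 (0.982), MMADHC (0.98) and PSMB6 (0.963). MYL6 was closest to SPTSSA (0.98), the septin gene SEPTIN7 (0.978) and SCP2 (0.964). PLS1 was closest to PTGS2 (0.975), LGALS3 (0.971) and GALM (0.968), and ZYX to SCP2 (0.978), NDUFB6 (0.975) and GGTA1 (0.974). For SVIL the nearest were RIOK3 (0.937), PRICKLE1 (0.936) and PLEKHF2 (0.932). CORO2A had weaker matches in XYLT2 (0.875), DPF2 (0.87) and IBSP (0.869).

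The 9 genes were set beside a wider list of 164 actin cytoskeleton genes named for their textbook roles, of which 110 were measured, the 9 left out. The list was chosen with earlier results of these data known, and its genes were not matched in brightness to all named genes. In the prepubertal group limma called 6 of the 110 higher in blastocysts (5.45%) and 1 lower (0.909%), against a background of 2.57% of named genes higher and 1.39% lower. In the adult group it called 4 higher (3.64%) and 1 lower (0.909%), against 1.84% and 1.33%. The median difference of the list was 0.22 (log2) in the prepubertal group, where that of all genes was -0.16, and 0.52 in the adult group, where it was 0.13. At an unadjusted p of 0.05 the list had 23 genes (20.9%) in the prepubertal group, against 17.3% of named genes, and 28 (25.5%) in the adult group, against 15.1%.

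Among genes that bind monomers or turn filaments over, 1 of 15 passed. PFN1, the gene of profilin, read 25565, 32043 and 33422 in prepubertal blastocysts, against 554, 28.3 and 335 in prepubertal 8-16-cell embryos, a difference of 7.19 (log2, SE 1.23, limma adjusted p = 1.41e-05). PFN1 did not pass in the adult group, with 18843, 5156 and 23460 in blastocysts against 276, 5073 and 1635 in 8-16-cell embryos. Of 11 genes that cap filament ends, CAPG was called in the prepubertal group (at least 2.15-fold higher, adjusted p = 0.0436) and TMOD3, a tropomodulin, in the adult group (5.42, SE 1.44, adjusted p = 0.0183). A second probe set of TMOD3 gave 1.83 and did not pass.

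Of 26 genes for bundling, crosslinking and the cortex, 3 rose in the prepubertal group and 2 in the adult group. MSN, which encodes moesin, a linker of filaments to the membrane, was the single gene of the list called in both, and without prepubertal 8-16-cell replicate 3 LASP1, CSRP2 and FERMT2 were called in both as well. It read 8092, 30383 and 23618 in prepubertal blastocysts, against 242, 234 and 111 in prepubertal 8-16-cell embryos, at least 27.7-fold higher (limma, adjusted p = 0.00104). In the adult group it read 6664, 14743 and 4704 in blastocysts, against 474, 8.4 and 149 in 8-16-cell embryos, a difference of 5.95 (log2, SE 1.38, limma adjusted p = 0.00477). LASP1, of a LIM and SH3 domain protein, rose by 4.89 (SE 0.85, adjusted p = 2.01e-05) and ACTN1, an alpha-actinin gene, by 4.74 (SE 1.28, adjusted p = 0.0194) in the prepubertal group. The call of ACTN1 was lost without prepubertal 8-16-cell replicate 3 (adjusted p = 0.143), and 2 other probe sets of ACTN1 gave 0.87 and 0.78. EZR, the ezrin gene, rose by 1.89 (SE 0.55, adjusted p = 0.0371) in the adult group.

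**Figure D4:**
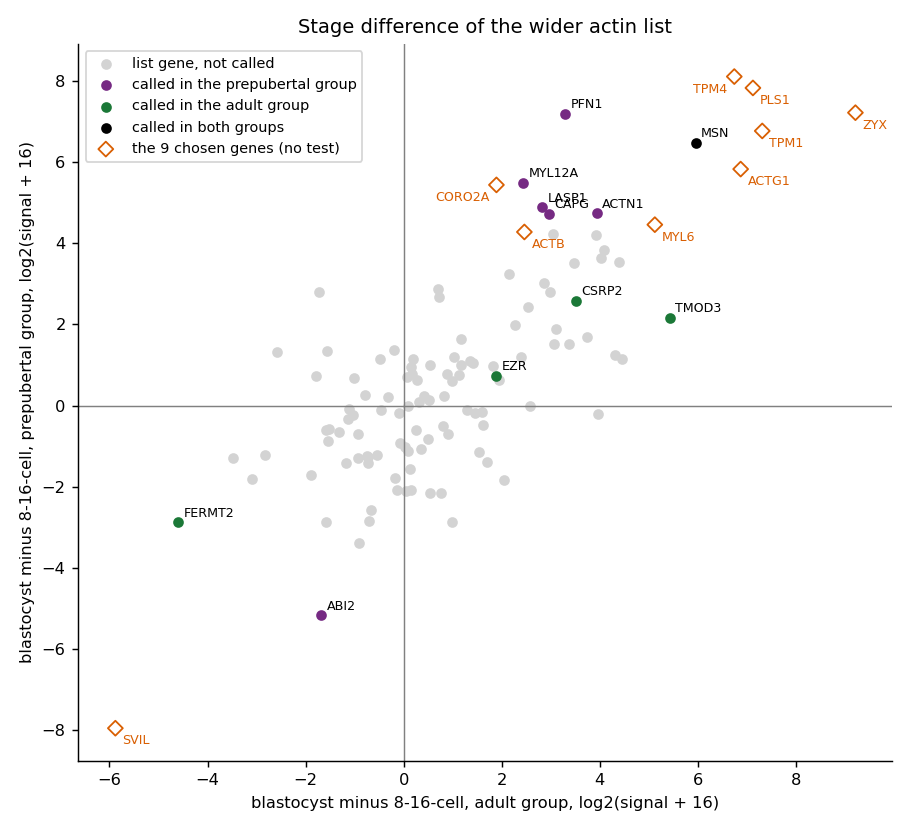
Log2 difference of blastocyst minus 8-16-cell embryos in the adult group (horizontal axis) and in the prepubertal group (vertical axis) for the 110 measured genes of the wider actin list, with called genes in purple (prepubertal), green (adult) or black (both) and the 9 chosen genes as open orange diamonds. ACTG1, TPM1, TPM4, PLS1 and ZYX lie at the upper right with MSN nearest to them. ACTB and MYL6 lie lower, CORO2A lies to the left, and SVIL lies at the lower left. The adult value of CORO2A compares groups that were both at background.

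Among tropomyosin and myosin II genes, MYL12A, a regulatory light chain gene, was the 1 of 14 that rose, by 5.49 (log2, SE 1.13, limma adjusted p = 0.00058) in the prepubertal group. Of 16 focal adhesion and LIM genes, CSRP2 rose by 3.51 (SE 0.87, adjusted p = 0.00902) and FERMT2, the gene of kindlin-2, fell by 4.60 (SE 1.29, adjusted p = 0.0295) in the adult group. A second probe set of FERMT2 gave -0.37 and did not pass. ABI2, of a complex that activates Arp2/3, was the 1 of 17 genes of that group that changed, at least 6.61-fold lower in prepubertal blastocysts (limma, adjusted p = 0.0221). None of the 5 other actins, the 5 formin and spire genes or the 1 measured gene for SRF and its coactivators passed in either group.

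Without prepubertal 8-16-cell replicate 3 the list had 8 genes higher and 2 lower in the prepubertal group, against 2.41% and 1.29% of named genes, with CFL1, CSRP2 and TMSB10 among the higher. The adult group then had 9 higher and 1 lower, against 2.94% and 2.09%, since all arrays share 1 estimate of the spread. Over the 20 alternatives, PFN1, LASP1, MYL12A and MSN kept their call in the prepubertal group. MSN in the adult group was lost without adult 8-16-cell replicate 2 and without adult blastocyst replicate 2, with adjusted p of 0.000695 to 0.0645. EZR was lost in 10 (adjusted p up to 0.566), CAPG in 8 (0.695), FERMT2 in 8 (0.517), ABI2 in 6 (0.48), ACTN1 in 5 (0.143), TMOD3 in 5 (0.177) and CSRP2 in 3 (0.119). Each of these 7 lost its call when single arrays of its own comparison were left out.

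Between donor groups limma called 0 of the 110 list genes at either stage, with 2 under an unadjusted p of 0.05 in blastocysts, where 3.9% of named genes were, and 9 in 8-16-cell embryos, where 8.75% were. A limma test of whether the donor difference itself differed between stages called 0 of the 110 and 0.0% of all named genes. Under an unadjusted p of 0.05 were 5 of the 110, against 521 of 9155 named genes.

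Genes of other cells that express these proteins were examined beside the results. The summed signal of 9 fibroblast and smooth muscle genes was 1213 to 3588 in prepubertal and 382 to 1713 in adult blastocysts, against 338 to 3240 in prepubertal and 1153 to 7173 in adult 8-16-cell embryos. COL3A1, MYH11, CNN1 and LUM were at background on all 12 arrays, while COL1A2 was above it on 3 prepubertal and 2 adult blastocyst arrays and on 1 adult 8-16-cell array. ACTA2, a smooth muscle actin gene, was above it on 2 prepubertal blastocyst arrays and on 1 array of each 8-16-cell group. DES was above it on 1 prepubertal blastocyst and 2 adult 8-16-cell arrays, COL1A1 on 1 of each, and DCN on 1 prepubertal blastocyst array. The sum of 12 cumulus and granulosa genes was 1524 to 2988 in prepubertal and 2791 to 4231 in adult blastocysts, against 1987 to 15536 in prepubertal and 1153 to 4366 in adult 8-16-cell embryos. FSHR, PTX3, AMH, INHA, CYP11A1 and GATM were at background on all 12 arrays. HAS2 was above background on 3 arrays of each blastocyst group, 0 of the prepubertal and 2 of the adult 8-16-cell arrays. STAR was above it on 0 prepubertal and 2 adult blastocyst arrays and on 3 arrays of each 8-16-cell group. Of the 12 arrays, TNFAIP6 was above background on 3, HSD3B1 and FOXL2 on 2 each and CYP19A1 on 1. Of 3 blood and 5 sperm genes, none was above background on more than 2 arrays. The part of such cells in the stage differences was not tested.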

How the data were processed

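The arrays are Affymetrix bovine arrays hybridized with cDNA amplified by the WT-Ovation Pico system, per the labels' protocols. The authors deposited 1 intensity per probe set and array, made with MAS5 (version not given) per the submitters' processing notes. Trimmed means of 500.19 to 500.31 on all arrays show that each was scaled to the same target. No column belonged to another series (0 columns). Each array's background and its number of probe sets above it are given in the report. Precision is limited by the 3 arrays of a group.

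Genes were named from the platform's annotation through current gene identifiers: 13292 probe sets named 1 gene, 86 several and 10638 none. From the deposited intensity, log2(signal + 16) was computed, and limma 3.58.1 (R 4.3.3; lmFit and eBayes, trend = TRUE) fitted 4 group means over the 12 arrays. The test was two-sided, with Benjamini-Hochberg adjustment over 24016 probe sets, 112 controls left out, and a threshold of 0.05. With 195.66 prior against 8 residual degrees of freedom, a gene's own spread weighs little. Adding 16 shrinks the log2 differences of dim probe sets, yet signals below background still enter them. For TPM1 in the adult group the stage difference was 7.31, and it was 8.47 with 1 added in place of 16. It was 2.45 with every signal raised to the highest background. Bacillus subtilis controls set the background, and if they were added to samples it is too high. The steps were tested on simulated data.

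The members, the wider list and the tests were chosen with earlier results of these data known. The genes named were all 9 members, every gene of the wider list past the threshold (up to 4 a role and direction), and the 3 genes most like each member. Alternatives were other pseudocounts, quantile normalization, array weights, no trend, dim probe sets left out, a floor at the highest background, the mean of a gene's probe sets, a replicate block and leaving out each array. Replicate numbers are shared between groups, but same-numbered pools did not deviate together (r of -0.025 to 0.049 over 18 pairs), so they do not pair the pools.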

Additional observations from a re-analysis of the deposited data

How the results depend on the processing

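The count of members called between donor groups was 0 at both stages under all 21 alternatives. Of the recomputed donor differences of members, 238 kept their direction and 15 turned. ZYX in blastocysts turned to 0.11 (log2) with array weights and 0.08 with quantile normalization. The others turned when 1 array was left out, and ran from -0.08 to 0.44 (ACTB), -0.37 to 0.15 (ACTG1), -0.43 to 0.13 (TPM4), -0.08 to 0.23 (MYL6) and -0.56 to 0.65 (ZYX) in blastocysts. In 8-16-cell embryos they ran from -0.04 to 2.08 (ACTG1), -0.22 to 2.53 (TPM1) and -0.60 to 1.30 (SVIL). None of these passed. Taken relative to the median of all probe sets, ACTB (-0.05) and MYL6 (-0.07) in blastocysts and SVIL (-0.03) in 8-16-cell embryos also turned. No stage difference of a member turned: 232 moved by less than the spread between pools and 27 by more. Raising every signal to the highest background gave a stage difference for PLS1 of 2.52 in the prepubertal and 2.96 in the adult group. In the same order it gave 3.44 and 3.35 for MYL6, and -3.56 and -2.99 for SVIL. For TPM1 it gave 3.02 and 2.45, for TPM4 3.63 and 3.78, and for ZYX 3.09 and 3.11. CORO2A had 2.26 in the prepubertal group and ACTG1 5.23 in the adult group. The calls of the wider list numbered 7 in the prepubertal group, with 4 to 10 when 1 array was left out, and 5 in the adult group, with 1 to 10. In the adult group array weights gave 11 and no trend 2. The cause was not tested. With a replicate block the list had 7 calls in each group and the members 0. Background limits TPM1, TPM4, PLS1, ZYX, CORO2A, MYL6 and ACTG1 at the 8-16-cell stage, and SVIL in blastocysts.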
